A study of Homo sapiens with 10 samples.

Results

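Ribosome footprints were compared gene by gene between HCT116 cells, a human colorectal cancer line, with YTHDF1 knocked down and HCT116 control cells. The members are the 3 ribosome profiling libraries among the 10 samples of the series, chosen by their labels. They are 1 control library and 2 knockdown libraries, here knockdown 1 and knockdown 2. The control hairpin targets GFP according to the table's column header. The titles name the knockdown hairpin as shY1-1 and shY1-2 while the genotype field gives shY1 for both, so the labels do not tell if a second hairpin was used. All 3 libraries were labelled as treated with cycloheximide, which stalls elongating ribosomes, at 100 ug/ml for 3 min, and then digested with RNase I. The series text gives YTHDF1-dependent translation in these cells as its subject. The deposited table also holds mRNA values from 1 control and 2 knockdown samples, and further libraries of control cells cover YTHDF1-bound RNA (RIP) and N6-methyladenosine (m6A).

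YTHDF1 is a cytoplasmic protein of the YTH family that binds m6A, the most abundant internal modification of mRNA, and it has been described as promoting the translation of the mRNAs it binds. Ribosome profiling sequences the mRNA fragments that ribosomes shield from nuclease. A gene's footprint value therefore depends on how much mRNA there is and on how many ribosomes that mRNA carries. Small noncoding RNAs inside host genes are also protected from nuclease by their own proteins or structure, and can enter such libraries at the size of a footprint.

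Of 6914 genes in the table, 6699 passed a filter on mean level and were tested. Log2(value + 1) was taken and each library was centred on its median, so every difference below is a log2 distance from the control relative to the median gene. Without centring, the median gene stood 0.28 below the control over both knockdown libraries, which is why levels in the deposited unit and centred differences can point to different sides for genes near the median. Both knockdown differences share the single control library, so an unusual control value appears in both. No gene passed limma's test at an adjusted p of 0.05 (0.0% of 6699 genes), where 1 residual degree of freedom sets the spread and the lone control is assumed to vary like the knockdown pair. The smallest Benjamini-Hochberg adjusted p was 0.2505. At an unadjusted p under 0.05 there were 214 genes, 138 higher and 76 lower, below the 335 that chance gives. The text therefore describes positions of genes in the libraries and makes no call of change for any of them.

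In 2255 genes both knockdown libraries lay above the control (33.7% of those tested), in 2103 both lay below (31.4%), and in 2341 they lay on opposite sides (34.9%). A distance of at least 0.5 in both libraries, or 1.41-fold, was reached above the control by 737 genes (11.0%) and below it by 621 (9.27%). A distance of at least 1, or 2-fold, was reached above by 212 genes (3.16%) and below by 163 (2.43%). These shares are the background for the counts of gene families on centred values. Without centring, 17.6% of all genes lay above in both libraries and 50.9% below, and 5.46% and 20.1% were at least 0.5 away. With quantile normalisation the shares were 32.0% and 33.0%, and 11.1% and 9.64%. Family counts under either setting are to be read against its own shares.

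**Figure D1:**
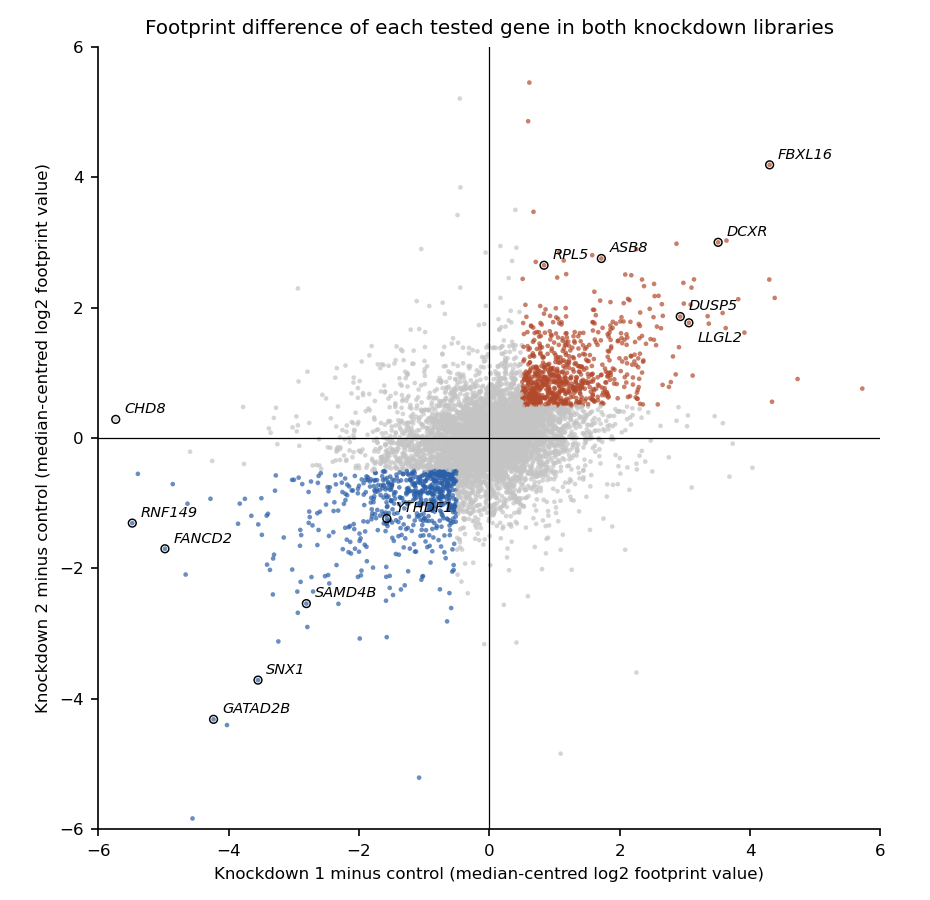
Each point is 1 of the 6699 tested genes, with its median-centred log2 footprint difference from the control in knockdown 1 (horizontal axis) and knockdown 2 (vertical axis). The 737 genes at least 0.5 above the control in both libraries are red, the 621 at least 0.5 below are blue, and all others are grey. FBXL16 and DCXR lie at the upper right end, GATAD2B and SNX1 near the lower left end, and CHD8 lies far below the control in knockdown 1 only.

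Cell type markers went with the labelled epithelial line only in part. Of 13 epithelial markers 7 were in the table. Footprints of EPCAM, KRT8, KRT18 and KRT19 ranged from 273 to 1158 over the 3 libraries. CDH1 ranged from 23.9 to 32.1 and CDX2 from 4.71 to 7.56, and KRT20, a keratin of differentiated colon cells, was low at 6.34, 1.10 and 0.473. Of 10 fibroblast markers 3 were in the table, and FN1, VIM and COL1A1 ranged from 0.312 to 13.2. Of 8 blood cell markers only CD68, a lysosomal protein of macrophages, was in the table. CD68 footprints read 15090, 10162 and 9485 in the control, knockdown 1 and knockdown 2, against mRNA values of 19.9, 4.98 and 19.9. The CD68 footprints thus lay above those of every epithelial marker in the table, and their source was not tested. No endothelial marker was in the table.

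The libraries differed in evenness. The column sums over named genes were 1227324 (control), 938928 (knockdown 1) and 1041090 (knockdown 2). These are sums of a relative unit, so read depth is unknown. Among tested genes 82 were at 0 in knockdown 1 and 9 in knockdown 2. Every control value of the table is at least 0.5, so none could be at 0 in the control. The same floor limits low control values in the next count. Values at least 4-fold below both other libraries occurred for 88 genes in knockdown 1, against 24 in the control and 13 in knockdown 2, and values at least 4-fold above both others for 34, 21 and 19. In mRNA no library had more than 7 genes of either kind. The gap between the 2 knockdown libraries had a median SD of 0.340 on the log2 scale.

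YTHDF1 itself (chromosome 20, 63195429 to 63216131) had a footprint level of 61.4 in control cells, 17.0 with knockdown 1 and 19.9 with knockdown 2. Both knockdown values lay well under the control, and they lay near each other. The centred differences were -1.57 and -1.23, with a mean of -1.40 ± 0.54 (SE) and a limma adjusted p of 0.997 (unadjusted 0.0405). Its mRNA values were 27.4, 8.62 and 7.81. The 2 other m6A readers in the table lay above the control. YTHDF2, the paralog best known for mRNA decay, read 59.3, 90.5 and 86.2 in the control, knockdown 1 and knockdown 2. IGF2BP2, which stabilises m6A-bearing mRNAs, read 82.4, 111 and 110. Their centred differences were 0.83 and 0.87 for YTHDF2 and 0.65 and 0.76 for IGF2BP2, each with an adjusted p of 0.997. The span of IGF2BP2 holds the microRNA gene MIR548AQ.

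Among the 10 tested m6A writers, erasers and cofactors, 3 lay above the control in both libraries, 3 below and 4 on opposite sides. METTL5, which methylates ribosomal RNA and not mRNA, read 235 in the control against 439 and 522 in knockdown 1 and 2, with centred differences of 1.12 and 1.49, and holds SNORD3K. METTL16, the methyltransferase of the U6 spliceosomal RNA, read 35.3, 59.5 and 45.2. RBM15B and ZC3H13, cofactors that place the mRNA methyltransferase complex, lay below the control. ZC3H13 read 37.1, 24.6 and 25.3, and RBM15B was scarce at 3.65, 1.56 and 1.42.

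Over all genes with a mean log2 level of at least 5, FBXL16, which encodes an F-box protein of the ubiquitin system (chromosome 16, 692500 to 705801), stood highest above the control in both libraries. Its footprints read 4.67, 94.7 and 80.9 (control, knockdown 1, knockdown 2), and its mRNA 15.7, 18.7 and 14.8. The mean level takes in all 3 libraries, so a gene can pass through the libraries where it is high. FBXL16 passed through its knockdown values, and its control value was low. The knockdown values lay together and the control stood apart, with centred differences of 4.30 and 4.19 and a limma adjusted p of 0.264. DCXR, a reductase for carbonyl compounds and sugars, followed with 196, 1921 and 1245, while its mRNA read 135, 106 and 136. DUSP5, a nuclear phosphatase that inactivates ERK, read 13.2, 91.5 and 39.8. Its mRNA also stood higher in knockdown 1, at 23.0, 68.9 and 30.1.

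The other 12 genes at the upper end were C15orf57, ITGA3, LLGL2, ASB8, POLR1D, PCSK7, TBL1XR1, PABPC4, PPP2R1A, MED31, MADD and COX5A. Each had an adjusted p of 0.997. ITGA3, the alpha 3 chain of the laminin-binding integrin, read 42.2 in the control against 165 and 116 in knockdown 1 and 2. LLGL2, a protein of epithelial cell polarity, read 66.3, 480 and 180. TBL1XR1, a subunit of the NCoR corepressor that also joins beta-catenin at target genes, read 154, 397 and 419. POLR1D, a subunit shared by RNA polymerases I and III, read 238, 733 and 577. In these 4 genes both knockdown values lay above the control, as the rule that picked them requires. The mRNA values, which took no part in that choice, lay nearer the control. POLR1D read 56.3, 50.1 and 56.8 in mRNA, and ITGA3 94.6, 128 and 83.2.

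Among genes with a mean log2 level of at least 5, GATAD2B, which belongs to the NuRD repressor complex, stood lowest, with 858 in the control against 38.2 and 33.1 in knockdown 1 and 2 (adjusted p = 0.2505). SNX1, a sorting nexin of the endosome, read 1173, 84.9 and 69.7 with the same adjusted p. The control mRNA values of these genes were 9.39 and 20.2. SAMD4B, an RNA-binding protein related to the repressor Smaug, read 194, 22.9 and 25.5. The next genes were TP53I11, WARS, FANCD2, MRPL55, ATF4, MAP2K7, GLTSCR2, RNF149, CCDC51, HSP90B1, LCOR and ZNF778, each with an adjusted p of 0.997. WARS, the cytosolic tryptophanyl-tRNA synthetase, read 609, 132 and 111. ATF4, the transcription factor whose translation rises when initiation is limited by stress, read 720, 213 and 131, against mRNA values of 182, 168 and 196. In both genes each knockdown value lay far under the control, on the side that the choice of genes fixes.

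For some low genes the knockdown libraries differed widely in size. FANCD2, a core protein of DNA crosslink repair, read 1034 in the control against 27.1 and 251 in knockdown 1 and 2. RNF149, a ubiquitin ligase, read 945, 17.2 and 301, and its span holds the snoRNA gene SNORD89. Other low genes hold small RNA genes too. GLTSCR2, a nucleolar protein that binds the 5S ribonucleoprotein, read 8714, 1774 and 2613 and holds SNORD23. HSP90B1, the HSP90 of the endoplasmic reticulum, read 2266, 508 and 737 and holds MIR3652. The part of these small RNA genes in the values was not tested. Over all 681 tested genes whose span holds a small RNA gene, 11.3% stood at least 0.5 above and 9.69% at least 0.5 below, near the background. For the 123 hosts of a snoRNA gene the shares were 11.4% and 13.0%.

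**Figure D2:**
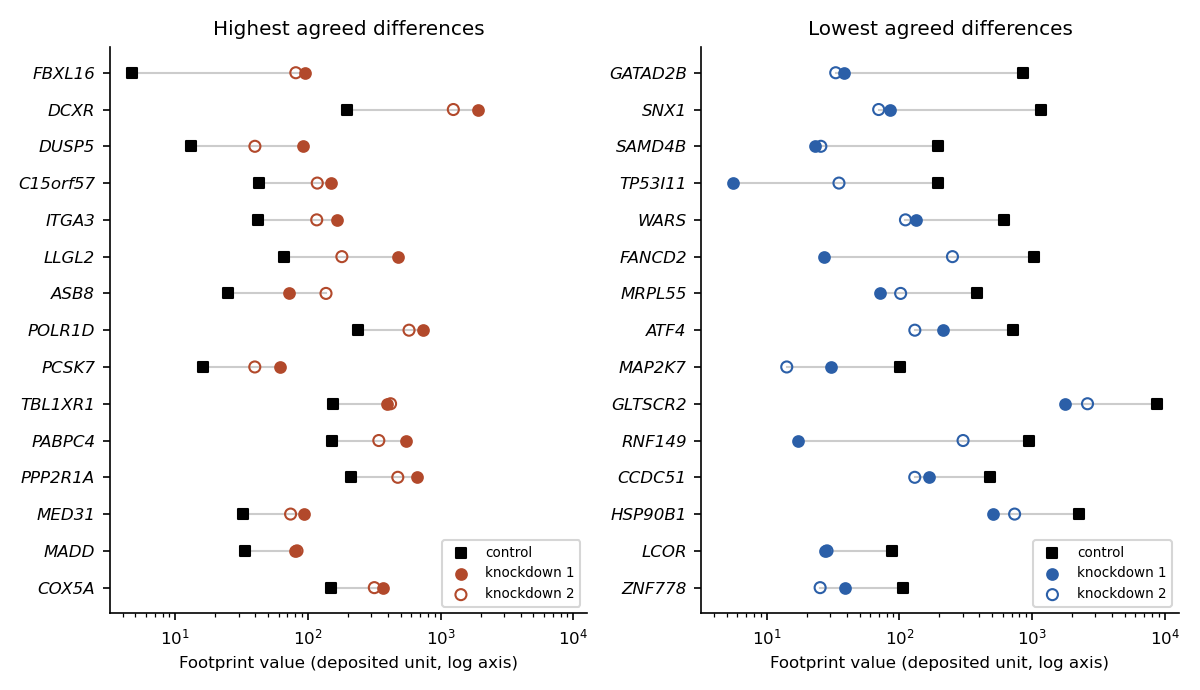
Footprint values in the deposited unit (log axis) of the 15 genes highest above and the 15 lowest below the control by the smaller of their 2 centred differences, among genes with a mean log2 level of at least 5. Squares are the control library, filled circles knockdown 1 and open circles knockdown 2. In all 30 genes both knockdown values lie on 1 side of the control value, as the choice of genes requires.

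Protein synthesis genes came first among the families, since translation is the process under study. The 49 tested cytosolic ribosomal proteins had medians of -0.13 in knockdown 1 and 0.15 in knockdown 2, with 17 above the control in both libraries, 15 below and 17 on opposite sides. The 2 medians thus lay on opposite sides of the median gene. The shares above (34.7%, background 33.7%) and below (30.6%, background 31.4%) were near the background. Many mRNAs of the translation machinery begin with a terminal oligopyrimidine tract, a C at the cap followed by an unbroken run of C and T, through which mTOR signalling controls their translation. The first 20 bases from the RefSeq start (GRCh38.p14) are shown for 8 of the translation genes described next, all with an entry in that table, to set starts with and without such a tract side by side. Capitals mark the tract where the start begins with C.
EEF2 (chr19:3985444-3985463, minus strand): CTCTTCCgccgtcgtcgccg
RPL22 (chr1:6199576-6199595, minus strand): CCTTTCTaactccgctgccg
RPSA (chr3:39406720-39406739, plus strand): CTTTTCCgtgctacctgcag
RPS25 (chr11:119018324-119018343, minus strand): CTTTTTgtccgacatcttga
RPS3 (chr11:75399518-75399537, plus strand): CCTTTCCTTTCagcggagcg
RPL3 (chr22:39319604-39319623, minus strand): CTCTaccggcgggatttgat
GSPT1 (chr16:11916635-11916654, minus strand): acactgcagttttaagccgg
RPS27L (chr15:63157458-63157477, minus strand): gcagatcgcttgcagcttgc

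Genes with a tract of at least 5 bases lay on both sides of the control. EEF2, which moves the ribosome along the mRNA, read 27004 in the control against 7749 and 10767 in knockdown 1 and 2, and its span holds SNORD37. RPL22 read 525, 243 and 232, and RPSA, the laminin receptor protein of the small subunit, 1203, 397 and 659. RPS25 lay only slightly below the median gene, at 4024, 2579 and 2605 with differences of -0.42 and -0.29. RPS3, whose start carries the longest tract shown, read 3667, 4653 and 5377 and lay above the control, with differences of 0.57 and 0.89. RPSA and RPS3 are snoRNA hosts too.

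RPL3, whose run of pyrimidines ends after 4 bases, read 232668, 67212 and 120165, the highest footprint value of the table in the control. Its span holds SNORD83A, SNORD83B, SNORD139 and SNORD43. RPL5 and RPL23A, also snoRNA hosts, were highest in knockdown 2, at 1256, 1926 and 6237 for RPL5 and 1415, 1985 and 7283 for RPL23A. RPS27L, a paralog of RPS27 and a p53 target, starts without a tract and read 254, 572 and 338. GSPT1, the release factor eRF3, also starts without one and read 60.6, 107 and 175.

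A tract of at least 5 pyrimidines beginning with C was found at 297 of the 5426 tested genes with a start in the RefSeq table (5.47%), and at 4.07% of all 35116 starts there. These 297 genes had medians of -0.01 and 0.04, and 9.43% stood at least 0.5 above and 9.09% at least 0.5 below. The 5129 other starts gave 10.8% and 9.07%. Among ribosomal proteins, the 26 with a tract had medians of -0.11 and 0.16 and the 15 with another start -0.23 and 0.15. Of the 26, 3.85% stood at least 0.5 above and 11.5% at least 0.5 below, and of the 15, 6.67% on each side. The shares of the 297 and the 5129 genes lay near the background. The start used in HCT116 cells was not measured.

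The next families are to be read against 33.7% of all genes above in both libraries and 31.4% below. Of 38 initiation factors 11 lay above the control in both libraries (28.95%) and 12 below (31.6%), with medians of -0.05 and 0.01. EIF4G2, which drives initiation on a subset of mRNAs, read 5279, 6648 and 8130 and holds SNORD97. EIF2S2, the beta subunit of eIF2, read 138, 65.7 and 68.7. Of 11 elongation and termination factors 6 lay above (54.55%) and 4 below (36.4%). The 12 cytosolic aminoacyl-tRNA synthetases had 4 members above (33.3%) and 2 below (16.7%). After WARS the lowest was KARS, at 428, 247 and 272. Of 47 mitochondrial ribosomal proteins 21 lay above (44.7%) and 13 below (27.7%). Without centring 8 of them lay above and 32 below, against 17.6% and 50.9% of all genes. MRPL20 read 161, 354 and 275 and MRPL17 164, 273 and 271, while MRPL55 read 383, 71.3 and 102. Of 44 ribosome biogenesis factors 18 lay above (40.9%) and 15 below (34.1%), with POLR1D highest and GLTSCR2 lowest.

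The DEAD and DEAH box helicases lay lower than most families. These enzymes unwind or remodel RNA in splicing, ribosome assembly, translation and decay. Of 36 tested members 23 lay below the control in both libraries (63.9%, background 31.4%) and 5 above (13.9%, background 33.7%). The medians were -0.38 in knockdown 1 and -0.21 in knockdown 2, and in mRNA -0.11 and 0.07. With quantile normalisation 23 members lay below and 4 above, against 33.0% and 32.0% of all genes, and without centring, where 50.9% of all genes lay below and 17.6% above, 32 lay below and 1 above. At least 0.5 below in both libraries were 6 members (16.7%, background 9.27%), which after their values were seen are named here as DDX59, DDX55, DDX11, DHX37, DDX10 and DHX15.

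DDX59 read 49.8 in the control against 15.7 and 18.9 in knockdown 1 and 2. DDX55, a ribosome assembly helicase, read 59.1, 16.4 and 27.0, and its span holds SNORA9B. DHX15, which releases the spliceosome from the excised intron, read 523, 275 and 289 at a much higher level. In all 3 of these both knockdown values lay under the control, as their choice requires. The abundant DDX5, host of MIR3064 and MIR5047, read 1911, 1555 and 1386, so that it was near the median gene with differences of -0.07 and -0.12. DHX57 was the highest member at 14.8, 22.9 and 20.9. DHX9, a helicase of double-stranded RNA, was almost level at 207, 203 and 203, or 0.20 and 0.31 after centring. EIF4A2, an initiation helicase, read 2052, 1697 and 3060, lay on opposite sides and holds several snoRNA genes. DDX5 and EIF4A2 are named after their values were seen.

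Splicing factors leaned the same way, with 30 of 69 below in both libraries (43.5%, background 31.4%) and 12 above (17.4%, background 33.7%). DHX15 is counted in both lists. The medians were -0.25 and -0.07, and in mRNA -0.19 and 0.04. TRA2B, a splicing activator, read 694, 284 and 351, and SF3B2, of the branch point complex, 409, 226 and 206. PTBP2 and RBFOX2, which regulate exon choice, lay above the control, at 7.07, 17.5 and 8.84 for PTBP2 and 42.0, 74.4 and 51.8 for RBFOX2. SF3B2, whose span holds SNORD13F, is named after its values were seen. Without centring 45 splicing factors lay below and 4 above, against 50.9% and 17.6% of all genes, and with quantile normalisation 36 and 9, against 33.0% and 32.0%.

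Of 40 nucleoporins and transport receptors 18 lay below in both libraries (45.0%) and 7 above (17.5%). NUP160 and NUP93, scaffold proteins of the pore, stood well above the control all the same. NUP160 read 110, 253 and 186 and NUP93 66.4, 157 and 109. Of 10 histones 5 lay below and 1 above. H1F0, a linker histone of nondividing cells, read 118, 64.2 and 65.2. Members of the families just described that met the 0.5 distance were few. Below the control were 5 splicing factors (7.25%), 2 nucleoporins (5%) and 1 of the 10 histones, against a background of 9.27%. Above it were 2 (2.90%), 3 (7.5%) and 0, against 11.0%. Below the control, splicing factors and nucleoporins thus did not exceed the background at this distance.

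Subunits of the ATP synthase and of the cytosolic chaperonin lay above the median gene, by small distances. Of 17 genes in the ATP synthase list 14 lay above the control in both libraries (82.4%, background 33.7%) and 2 below. The medians were 0.35 and 0.26, and in mRNA 0.25 and 0.04. The 2 below are ATP5S, a coupling factor, and ATP5SL, since renamed DMAC2, which is known as an assembly factor of complex I. ATP5B, the catalytic beta subunit, read 971, 1682 and 1446 and was the only member at least 0.5 above in both, and it holds SNORD59A and SNORD59B. ATP5A1, the alpha subunit, read 640, 699 and 804. ATP5G2, of the membrane ring, read 422, 570 and 443. With quantile normalisation 10 members lay above and 2 below, against 32.0% and 33.0% of all genes, and without centring 6 lay above and 4 below, against 17.6% and 50.9%. At mean log2 levels of 8 or more, where most of this list lies, 41.1% of all genes lay above on centred values and 24.9% below.

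The chaperonin CCT folds actin and tubulin, and prefoldin hands clients to it. Of 8 tested CCT and prefoldin genes 7 lay above in both libraries (87.5%, background 33.7%) and 1, CCT8, lay on opposite sides. Their median mean log2 level was 8.93. At levels of 8 or more 41.1% of all genes lay above in both libraries. CCT7 read 1153, 1838 and 1257, CCT3 837, 849 and 871, and PFDN5 448, 526 and 466. The medians were 0.27 and 0.33, and in mRNA 0.18 and 0.02, and none of the genes reached 0.5 in both libraries. Quantile normalisation gave 6 above and 1 below, and without centring 3 lay above and 2 below, to be read against the same shares as for the ATP synthase. ATP5A1, CCT3 and CCT8 are named after their values were seen. TUBA1B, an alpha tubulin and so a client of this chaperonin, read 647, 196 and 311.

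Other respiratory families were less uniform. Of 16 complex I subunits 6 lay above (37.5%, background 33.7%) and 3 below (18.75%, background 31.4%). Of 7 subunits of complexes II and III 4 lay above (57.1%) and none below. Of 5 complex IV subunits 2 lay above (40%) and none below. NDUFB1 read 202, 313 and 307, SDHB 521, 676 and 530, and COX5A 148, 369 and 316. COX4I1, of the same complex as COX5A, read 916, 1002 and 708 and lay on opposite sides of the median gene. Of 32 proteasome subunits 10 lay above (31.25%) and 12 below (37.5%), and none reached 0.5 in both libraries on either side. Of 44 heat shock proteins and co-chaperones 13 lay above (29.55%) and 20 below (45.45%). Of 29 genes of translocation and folding in the endoplasmic reticulum 9 lay above (31.0%) and 10 below (34.5%), with HSP90B1 lowest.

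**Figure D3:**
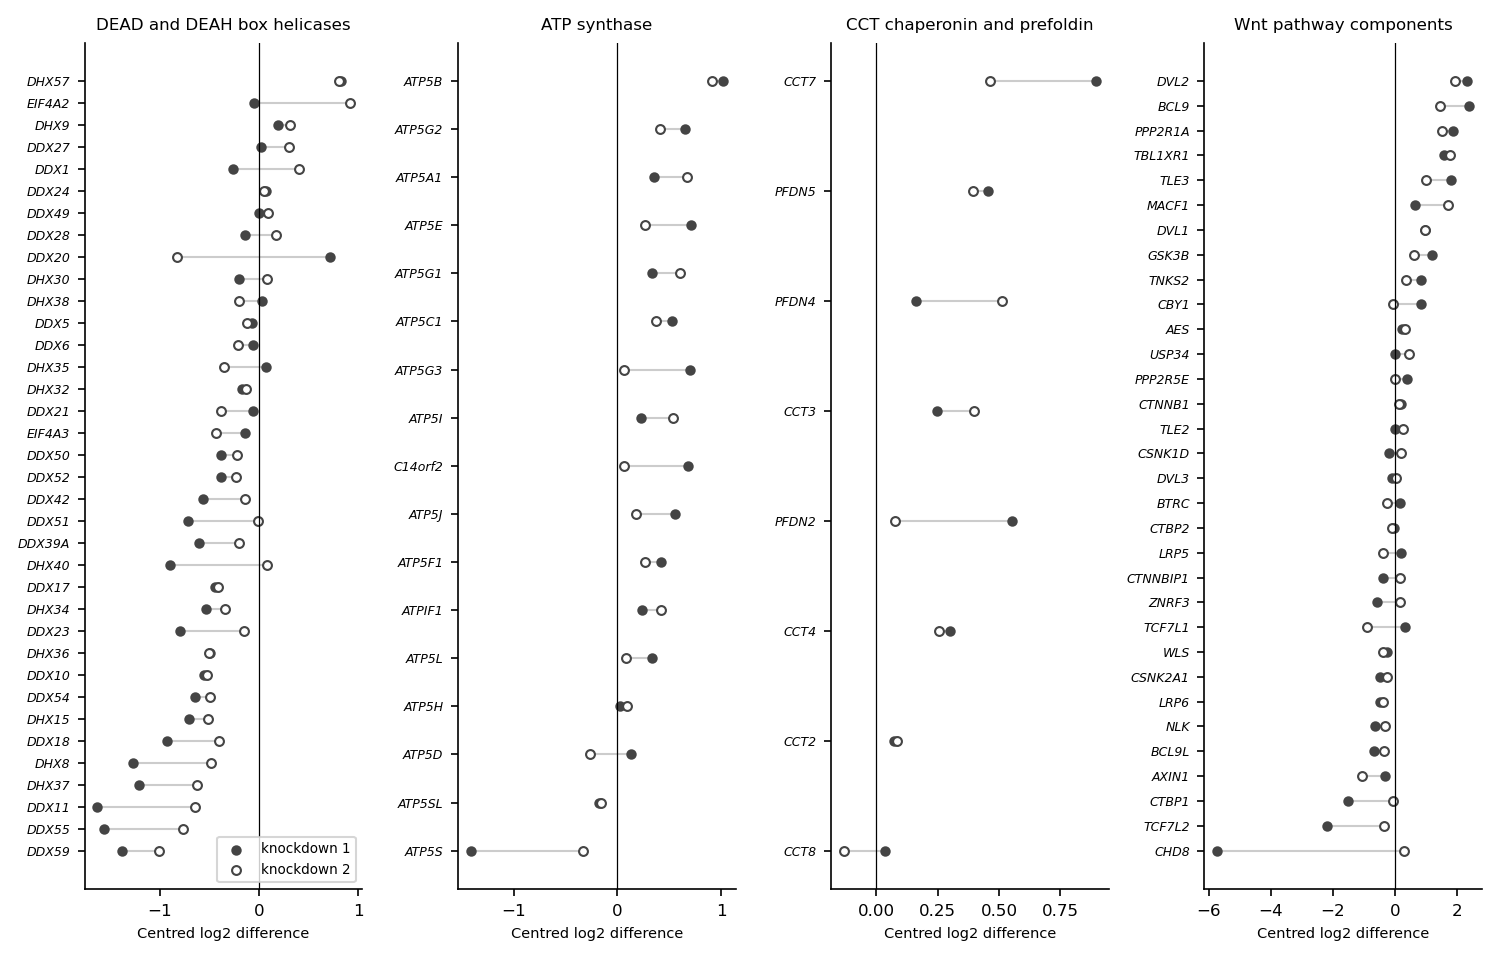
Median-centred log2 footprint differences from the control of every tested member of 4 families, filled circles for knockdown 1 and open circles for knockdown 2, with horizontal axes that differ between panels. Most helicases lie left of 0, 14 of 17 genes of the ATP synthase list and 7 of 8 CCT and prefoldin genes lie right of 0 in both libraries, and 8 Wnt pathway genes lie at least 0.5 right of 0.

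The series is titled for Wnt signalling, in which beta-catenin is destroyed by a complex of AXIN, GSK3 and casein kinases until ligand and receptors recruit Dishevelled. Of 32 tested pathway genes 11 lay above the control in both libraries (34.4%, background 33.7%) and 9 below (28.1%, background 31.4%), with medians of 0.08 and 0.14. At least 0.5 above in both were 8 genes (25.0%, background 11.0%) and none was at least 0.5 below (background 9.27%). Quantile normalisation gave 8 and 0, against 11.1% and 9.64% of all genes. Without centring 6 lay at least 0.5 above and 6 at least 0.5 below, against 5.46% and 20.1%. Leaving out hosts of small RNA genes, 4 of 20 tested pathway genes were at least 0.5 above and none was as far below. The part of the small RNA genes in these values was not tested. The 8 genes, named after their values were seen, are DVL1, DVL2, GSK3B, MACF1, PPP2R1A, BCL9, TLE3 and TBL1XR1.

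They fall on several steps of the pathway. DVL2, a Dishevelled protein that relays the receptor signal, read 9.82 in the control against 45.1 and 31.5 in knockdown 1 and 2, while DVL1 was scarce at 1.06, 2.47 and 2.19 and holds MIR6808. GSK3B, the kinase that marks beta-catenin for destruction, read 68.9, 135 and 82.8 and holds MIR6529. PPP2R1A, the scaffold of phosphatase PP2A, read 211, 659 and 475 and holds MIR6801. BCL9, a coactivator of beta-catenin, read 2.71, 15.8 and 6.98, and TLE3, a corepressor of TCF factors and host of MIR629, 34.2, 105 and 54.5. The choice of these genes places both knockdown values above the control. Activators and inhibitors of the pathway were both among them. The mRNA of GSK3B stood higher too, at 15.2, 28.6 and 26.2. After centring, the mRNA of MACF1, PPP2R1A and TBL1XR1 also lay above the control in both knockdown samples. That of DVL1 and TLE3 lay below in both, and that of DVL2 and BCL9 on opposite sides.

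Beta-catenin itself, CTNNB1, read 429, 424 and 370, or 0.21 and 0.13 after centring. The receptor LRP6 read 17.6, 10.4 and 10.3, with differences of -0.48 and -0.38. BCL9L, the paralog of BCL9, read 41.7, 21.7 and 25.7. TCF7L2, the main TCF factor of colon, read 230 in the control against 42.2 and 143 in knockdown 1 and 2. CHD8, a remodeller that binds beta-catenin, read 1275, 19.6 and 1228, so that knockdown 1 alone stood apart. The span of CHD8 holds the snoRNA genes SNORD8 and SNORD9 and that of TCF7L2 holds SNORA87, and BCL9L holds MIR4492. AXIN1, the scaffold of the destruction complex, read 17.1, 11.5 and 5.81. CTNNB1, TCF7L2, CHD8 and AXIN1 are named after their values were seen.

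Of 14 Wnt target genes 3 lay above in both libraries and 5 below, with medians of -0.23 and 0.02. FOSL1 read 325, 114 and 195, with mRNA values of 816, 506 and 774. SOX9, a target that also marks crypt progenitors, read 8.32, 22.7 and 10.1.

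**Figure D4:**
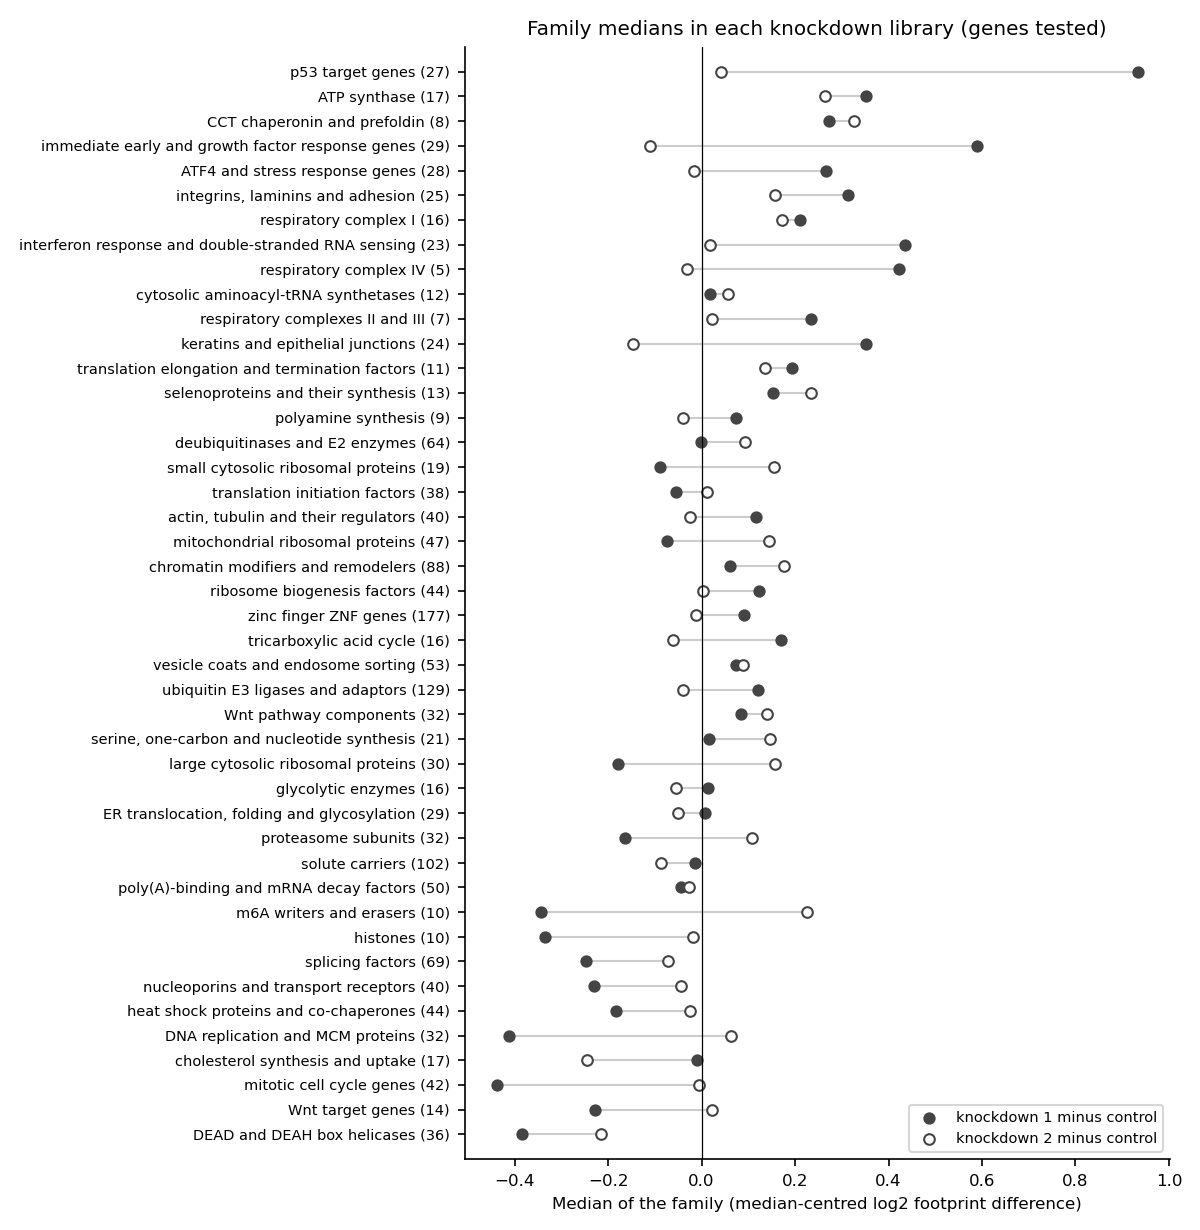
Medians of the median-centred log2 footprint difference in each family with at least 5 tested genes (number in brackets), filled circles for knockdown 1 minus control and open circles for knockdown 2 minus control. The helicases lie lowest on the mean of both libraries, and p53 targets, immediate early genes, DNA replication and mitotic genes show wide gaps between the libraries.

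Several families had medians far from 0 in knockdown 1 and nearer 0 in knockdown 2. The 27 p53 targets had medians of 0.93 in knockdown 1 and 0.04 in knockdown 2, and in mRNA 0.88 and 0.10. BTG2, an antiproliferative p53 target, read 6.68 in the control against 52.8 and 5.87 in knockdown 1 and 2, and SESN2 3.16, 13.3 and 1.25. Members on the same side in both libraries were 15 above (55.6%, background 33.7%) and 3 below, among them PHLDA3 at 1.77, 10.5 and 2.64 and BAX, the pore-forming death protein, at 160, 211 and 201. TP53I11 was the lowest, at 193, 5.59 and 35.0. BTG2, SESN2 and BAX are named after their values were seen.

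The 42 mitotic genes had medians of -0.44 and -0.01, and in mRNA -0.57 and -0.04, the opposite side to the p53 targets in knockdown 1. CDK2 read 219, 68.2 and 126, with mRNA of 162, 75.6 and 170. AURKA, a spindle kinase, lay above the control in footprints, at 25.5, 38.2 and 60.9, while its mRNA read 201, 90.1 and 178. The 32 DNA replication genes had medians of -0.41 and 0.06, with GINS2, of the replicative helicase, at 66.7, 20.1 and 33.0. Immediate early genes had medians of 0.59 and -0.11, interferon response genes 0.44 and 0.02, and keratin and junction genes 0.35 and -0.15. Whether knockdown 1 differs by its hairpin or its culture cannot be told apart here.

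Stress response genes split by gene. ATF4 and WARS lay lowest of the 28, and ATF3 and DDIT4, other stress-induced genes, lay highest. ATF3 read 14.2, 55.3 and 25.5 in footprints and 2.65, 12.1 and 3.60 in mRNA. DDIT4, an inhibitor of mTOR, read 7.66, 33.7 and 14.4 in footprints and 11.4, 26.7 and 13.3 in mRNA. In both genes the mRNA followed the footprints from library to library, whereas the mRNA of ATF4 lay within 168 to 196.

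Metabolic enzymes showed pairs on opposite sides. LDHA, the muscle-type lactate dehydrogenase subunit, read 9305, 3185 and 5010, while LDHB, the heart-type subunit, read 1282, 2260 and 1971. Their mRNA values ranged from 432 to 453 for LDHA and from 632 to 712 for LDHB. Of 16 glycolytic genes 4 lay above and 5 below in both libraries. In nucleotide synthesis CTPS1, which makes CTP, read 137, 55.6 and 52.3, and DHODH, of the pyrimidine pathway, 62.9, 31.5 and 25.6. ADSS, of the purine pathway, read 19.9, 45.0 and 47.6, and GOT1, the cytosolic aspartate transaminase, 108, 204 and 174. In all 4 of these the knockdown values lay close together.

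Of 17 cholesterol genes 4 lay above and 9 below (52.9%, background 31.4%), with medians of -0.01 and -0.25. At the 0.5 distance 2 stood above (11.8%, background 11.0%) and 2 below (11.8%, background 9.27%). DHCR7, of the last step, read 195, 96.5 and 86.1, and the mevalonate enzyme MVD read 43.3, 66.9 and 130. Of 13 selenoprotein genes 7 lay above and 2 below, and 3 were at least 0.5 above (23.1%, background 11.0%), namely SEPSECS, EPT1 and GPX1. SEPSECS, which makes the selenocysteine on its tRNA, read 0.568, 15.7 and 9.11. Its control value lay near 0.5, under which the table holds no control value. The glutathione peroxidase GPX1, named after its values were seen, read 61.5, 128 and 87.2. The mRNA medians of the selenoprotein list were -0.23 and -0.04.

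More genes stand away from the control at low levels. The median mean log2 level was 3.35 for the ZNF genes, against 4.66 for all genes. It was only slightly lower than that of all genes for the chromatin (4.4) and ubiquitin ligase (4.3) lists. At mean log2 levels of 4 to 5, which hold the medians of the chromatin and ubiquitin ligase lists, 12.7% of all genes stood at least 0.5 above and 9.89% below. At levels of 3 to 4, which hold the median of the ZNF genes, the shares were 13.8% and 12.0%. Of 88 chromatin modifiers 14 stood at least 0.5 above (15.9%, background 11.0%) and 7 below (7.95%, background 9.27%). SUZ12, a core subunit of Polycomb complex 2, read 2.33, 11.1 and 13.9, and CBX8, of Polycomb complex 1, 4.57, 11.3 and 10.4. The related acetyltransferases CREBBP and EP300, named after their values were seen, read 14.2, 22.7 and 46.3 and 14.3, 22.5 and 24.8. KDM6B, a demethylase that removes the Polycomb mark, lay below at 37.9, 3.32 and 4.99. Of 129 ubiquitin ligases and adaptors 21 stood at least 0.5 above (16.3%) and 10 below (7.75%). Beside FBXL16 these included HERC6 at 4.25, 21.8 and 11.3, and on the lower side KLHL26 at 23.1, 2.11 and 3.33. Of 177 ZNF genes 24 stood above (13.6%) and 23 below (13.0%).

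Structural and adhesion genes were mixed. VCL, the adhesion protein vinculin, read 98.4, 17.8 and 41.7, with mRNA of 44.0, 20.0 and 45.4. LAMC1, a laminin chain, read 68.3, 29.9 and 29.4. AP2M1, a subunit of the endocytic clathrin adaptor, read 262, 568 and 397. Poly(A)-binding and decay factors had medians of -0.04 and -0.03 over 50 genes. In that list PABPC4, a cytoplasmic poly(A)-binding protein, stood highest, at 151, 548 and 342, with SNORA55 in its span and mRNA values of 200, 213 and 228.

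At the median, the mRNA of the genes apart in footprints lay much nearer the control. These genes were chosen by their footprints and not by their mRNA, so the choice itself sets their footprint medians apart. The gap between the assays therefore does not show that footprints changed without mRNA. Over all tested genes 30.4% had mRNA above the control in both knockdown samples and 30.6% below. Of the 737 genes at least 0.5 above in footprints, 305 had mRNA above in both (41.4%) and 181 below (24.6%), with median mRNA differences of 0.14 and 0.02 beside footprint medians of 1.09 and 0.91. Of the 621 genes at least 0.5 below, 244 had mRNA below in both (39.3%) and 153 above (24.6%), with mRNA medians of -0.16 and -0.03 beside -1.07 and -0.87. The mRNA libraries were made separately from the footprint libraries and have their own control.

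Genes of low level lay farther from the control. At mean log2 levels of 1 to 2, 12.4% of genes stood at least 0.5 above and 15.7% at least 0.5 below. At levels of 8 or more these shares were 7.51% and 3.40%. At the highest levels 41.1% of genes lay above in both libraries and 24.9% below, against 29.4% and 37.2% at the lowest.

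**Figure D5:**
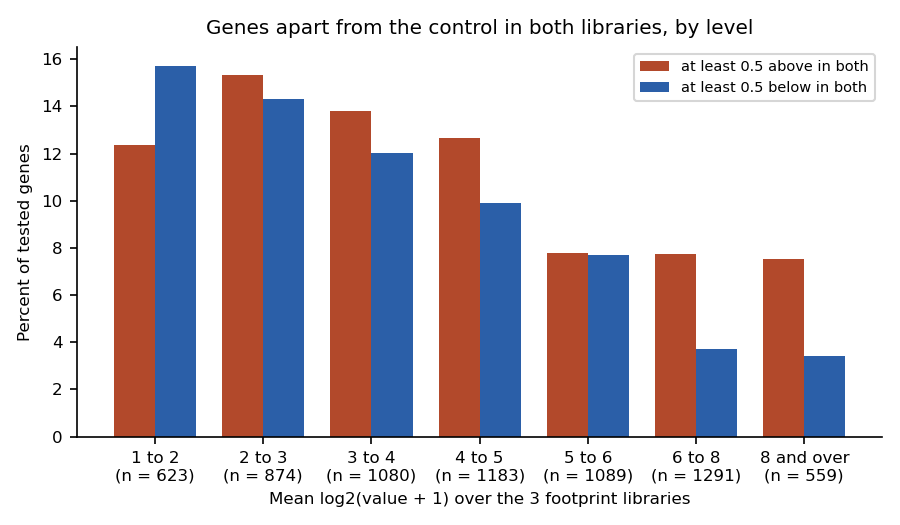
Percent of tested genes at least 0.5 above (red) and at least 0.5 below (blue) the control in both knockdown libraries, by mean log2(value + 1) over the 3 footprint libraries, with the number of genes per bin under the axis. Both shares are lowest at levels of 8 and over, at 7.51% and 3.40%.

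Genes listed as bound by YTHDF1 or as bearing m6A had shares near the background. Of the 6699 genes 2374 were in the RIP list, which holds ratios of RIP over input of at least 1.5. Of these 11.5% stood at least 0.5 above and 10.7% at least 0.5 below, against 10.7% and 8.51% of the 4325 others. The RIP-listed genes had lower footprint levels, with a control median of 19.1 against 38.5, so the shares were also taken within 3 equal bins of level. In the highest bin 6.51% of 476 listed genes stood at least 0.5 below, against 3.24% of 1757 unlisted genes, and in the lowest bin 13.2% against 14.7%. The 594 listed genes with the highest RIP ratios gave 12.6% above and 10.9% below, and the 594 with the lowest 10.8% and 10.6%.

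For m6A, 4848 genes had an enriched window in both replicates and 1127 in neither. At least 0.5 above stood 10.8% and 11.2% of them, and at least 0.5 below 9.14% and 10.4%. In the highest bin of level 45.7% of 357 genes without a window lay above the control in both libraries, against 35.2% of 1672 genes with windows in both replicates. In that bin the genes without a window also had higher levels, with a control median of 168 against 131. The shares were 33.4% and 31.1% in the middle bin and 30.9% and 32.4% in the lowest. At the 0.5 distance, genes with 6 or more windows gave 11.8% above and 10.6% below. Of the genes at the ends of the footprint range, FBXL16, ITGA3, DUSP5, LLGL2, PCSK7, PABPC4 and MADD among the highest 15 were in the RIP list, and GATAD2B, SAMD4B, FANCD2, MAP2K7, CCDC51, LCOR and ZNF778 among the lowest 15. That is 7 of 15 on each side, beside 35.4% of all tested genes in the RIP list, and the difference was not tested. DCXR, SNX1, WARS and ATF4 were not listed.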

How the data were processed

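The deposited expression table holds for each gene a signal in 3 footprint and 3 mRNA libraries, a relative level with no unit named in its header. The submitters' processing notes name STAR and GRCh38 without versions. No whole-read steps were found, so no count model was used. Separate cultures are not stated in the labels, so p-values measure only the spread between these samples, which may be technical. Of 6926 rows, 12 with names damaged by a spreadsheet and 215 genes with a mean log2(value + 1) under 1 were left out. Every control value is at least 0.5, while 177 and 37 genes of the table are at 0 in knockdown 1 and knockdown 2, so the table favours genes present in the control. In the RIP list the authors deposited FPKM in RIP and input and the ratio between them. The m6A lists hold the authors' deposited ratio of immunoprecipitate over input per window, called per replicate.

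Values were median-centred on the log2(value + 1) scale, which understates differences of low genes, and tested with limma-trend (limma 3.58.1, R 4.3.3), 2-sided, over the 3 footprint libraries alone. The members, families and alternatives were chosen with earlier results of these data known, so no list is independent evidence. Families with no test are described by counts beside all genes. Of 49 lists, 48 had members in the table. The heat shock list was trimmed after values were seen, to remove a gene its name pattern took in error. Named genes were YTHDF1, the 15 highest and 15 lowest by the smaller of both centred differences at a mean log2 level of at least 5, and per family all members up to 6 tested genes or else the 2 highest and 2 lowest. Cell type markers were added, and the other exceptions are stated where they appear. Of tested names 99.7% were found in the RefSeq table (GRCh38.p14), which gave spans, small RNA genes and starts without regard to strand for the spans. Alternatives were no centring, quantile normalisation, pseudocounts of 0.5 and 5, no filter and a stricter one, leaving out hosts of small RNA genes, each knockdown library left out, a fit with the mRNA libraries and a replicate block.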

Additional observations from a re-analysis of the deposited data

How the results depend on the processing

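Every result rests on 1 control library and on a relative unit of unknown depth, so counting error could not be given. In limma 0 genes passed in either direction, and this held with quantile normalisation, both other pseudocounts, no filter, without hosts of small RNA genes and with the mRNA libraries added. Without centring 2 genes passed on the higher side (FBXL16 and DCXR) and 4 on the lower (GATAD2B, SNX1, PLCB1 and XYLT2). With a mean level of at least 3, 2 passed on the lower side, SNX1 and GATAD2B. PLCB1 and XYLT2 are named after their values were seen. With 1 knockdown library left out and the mRNA libraries setting the spread, 17 to 100 genes passed on the higher side and 12 to 144 on the lower. The numbers of genes at least 0.5 above and below were 366 and 1349 without centring. The number below was 393 with a mean level of at least 3. Taken in a single knockdown library they were 1322 to 1778 above and 1253 to 1694 below.

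With the replicate number as a block over footprint and mRNA libraries 2 genes passed on the higher side (FBXL16 and DCXR) and 4 on the lower (GATAD2B, SNX1, PLCB1 and SAMD4B). Nothing in the labels ties equal numbers to 1 culture, and the difference between knockdown 1 and knockdown 2 correlated at 0.375 across genes between assays.

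The sign of a family's median relative to all genes turned in 35 of 431 combinations of family and alternative, 22 of them with a knockdown library left out. Of these, 30 were families whose median lay within 0.2 of all genes. Of families at least 0.2 away, the sign turned in 5 of 116. These were YTH readers and IGF2BP proteins without small RNA hosts (-0.28), blood markers with quantile normalisation (0.177), and, with either knockdown library left out in turn, Wnt targets (-0.26 to 0.0193), stress response genes (-0.019 to 0.234) and immediate early genes (-0.114 to 0.558). Of named genes called on 1 side, CTNNB1 (-0.113) and DHX9 (-0.028) turned without centring and CD68 (0.162) with quantile normalisation. The cause was not tested.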
